A study of Mus musculus with 4 samples.

Results

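The extracellular matrix and metalloprotease genes of a methylated-DNA capture experiment were taken by gene label: labels that start with Adam, Lama, Lamb, Lamc, Fbn, Fbln or Mmp, or that read Col, a number, a and a number. The rule found 134 of the 10000 regions of the deposited table, assigned to 68 of its 5349 gene labels. A further region was left out because its label, Col4a3bp, only starts like a collagen; it names a ceramide transporter, and its exon 15 region held 8 Treg, 3 Th1 and 3 naive reads. The rule used no measured value. All 68 labels matched a RefSeq gene symbol.

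The DNA came from CD4+ T cells of spleen and lymph node of female Balb/c mice, with 1 library for each of 4 populations. Th17 cells were sorted as CD3+CD4+ cells low in CD45RB with IL-17A and without interferon gamma. Treg cells were sorted as CD3+CD4+ cells with very high CD25. Th1 cells were low in CD45RB with interferon gamma and without IL-17A, and naive cells were high in CD45RB. All were stimulated for 3 h with 10 ng/ml PMA plus 500 ng/ml ionomycin, Treg cells after their sort and the others before it. The mice were of 1 strain with no genetic change named in the labels, and neither their age nor whether several were pooled for a library is stated in the sources used here. The sorted cells are populations from whole animals, defined by surface markers and secreted cytokines at the time of the sort.

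Fragments carrying methylated cytosines were captured by a methyl-CpG binding protein kit and sequenced, so reads in a region depend both on its methylation and on how many CpG pairs it holds. The deposited value of a region is a scaled number of reads. One read was worth 0.352 in Treg, 1.68 in Th1 and 0.996 in naive, and whole reads were recovered by dividing by these constants. The whole table held 74571 Treg, 19548 Th1 and 34277 naive reads, with a median of 7, 2 and 3 reads per region in Treg, Th1 and naive. The Th17 value was 0 in all 10000 regions, so the table does not tell how deep that library was, and no ratio to Th17 is given. The labels do not state how the 10000 regions were chosen, and a set chosen on its reads would limit what the reads can show. The genes that define the populations could not check the labels, because few of those looked up had a region.

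The extracellular matrix is the meshwork of secreted proteins around cells. Collagens form its fibres and sheets, laminins assemble with type IV collagen into the basement membranes under epithelia and around vessels, and fibrillins and fibulins build elastic fibres. The metalloproteases cut these proteins or release other proteins from the cell surface: matrix metalloproteases (MMP) and ADAMTS enzymes act mainly outside the cell, and most ADAM enzymes are anchored in the membrane. T cells cross basement membranes when they enter tissue. DNA methylation at a gene's start is often found with low transcription, whereas methylation inside gene bodies is common in expressed and silent genes alike.

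Promoters were rare among the regions: 5 of 134, or 3.73%, against 477 of 10000, or 4.77%, in the whole table. They belong to 4 genes. The table gives each a distance, read here as that of the region's middle from the gene's start and negative before it. Adamts17, a secreted metalloprotease of the ADAMTS family, had a region at -1132 bp (mm9 chromosome 7, 73983378 to 73983600) with 12 Treg, 3 Th1 and 2 naive reads. Lama2, the laminin alpha chain of muscle and nerve basement membranes, had one at -1851 bp (chromosome 10, 27338480 to 27338717) with 7 Treg, 1 Th1 and 6 naive reads. Mmp28, a secreted matrix metalloprotease, had one at -1779 bp (chromosome 11, 83278255 to 83278449) with 5 Treg, 2 Th1 and 4 naive reads. These 3 regions therefore lie upstream, more than 1 kb from the start. Lamc3, a laminin gamma chain, had a pair of them: at -1300 bp (chromosome 2, 31741362 to 31741660) with 9 Treg, 1 Th1 and 3 naive reads, and at 276 bp (31742914 to 31743259) in exon 1 with 14 Treg, 2 Th1 and 3 naive reads. The exon 1 region of Lamc3 was the only one of the 5 past the start.

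The promoter windows of Adamts17, Lama2 and Mmp28 are shown because they carry the CpG pairs next to the RefSeq starts of these genes. They are RefSeq sequences of GRCm38.p6, 250 bases before to 50 after the start, 5′ to 3′ on the gene's strand, with each CG pair in capitals. The deposited distances put the captured regions more than 1 kb from the authors' start; whether that is the RefSeq start was not tested, so the windows were not placed against the regions.
Adamts17: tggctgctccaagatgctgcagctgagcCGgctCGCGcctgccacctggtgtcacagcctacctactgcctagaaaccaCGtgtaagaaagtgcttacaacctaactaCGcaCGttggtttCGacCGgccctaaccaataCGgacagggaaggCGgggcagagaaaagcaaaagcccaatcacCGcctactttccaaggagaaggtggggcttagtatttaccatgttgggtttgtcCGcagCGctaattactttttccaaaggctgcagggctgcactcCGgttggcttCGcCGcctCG
Lama2: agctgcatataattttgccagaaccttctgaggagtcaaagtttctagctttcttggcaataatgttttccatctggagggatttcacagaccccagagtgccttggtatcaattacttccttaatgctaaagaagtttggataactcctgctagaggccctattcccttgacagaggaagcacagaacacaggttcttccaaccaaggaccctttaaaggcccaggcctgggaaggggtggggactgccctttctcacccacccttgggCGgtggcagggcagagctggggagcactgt
Mmp28: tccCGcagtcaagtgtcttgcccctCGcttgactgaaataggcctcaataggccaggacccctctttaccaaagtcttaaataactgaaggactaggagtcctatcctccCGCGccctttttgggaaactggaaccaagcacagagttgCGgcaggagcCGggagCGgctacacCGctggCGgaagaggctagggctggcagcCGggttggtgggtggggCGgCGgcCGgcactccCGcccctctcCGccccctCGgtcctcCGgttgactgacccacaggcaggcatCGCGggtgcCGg
The CG pair was counted as the letters CG, which read the same on both strands. The window of Adamts17 holds 17 and that of Mmp28 holds 20, and 31.4% and 26.5% of all RefSeq mouse promoter windows of this length hold at least as many. The window of Lama2 holds 1, as do or exceed 94.6% of windows. The matrix and metalloprotease genes with a window in the RefSeq table, 54 windows of 46 genes, had a median of 14 CG pairs, against 7 over all 32851 windows. No capture value is tied to these windows, so the count describes sequence only.

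Introns held 100 of the 134 regions, or 74.6%, against 78.7% of the table, and exons held 29, or 21.6%, against 16.6%. The families differed in this. Network-forming collagens had 5 of 11 regions in exons, whereas none of the 9 regions of the FACIT collagens, which sit on the surface of collagen fibres, was exonic. The median region was 250.5 bp long, against 249 bp in the table. Regions of 1 gene are not independent of each other, so the shares were not tested.

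**Figure D1:**
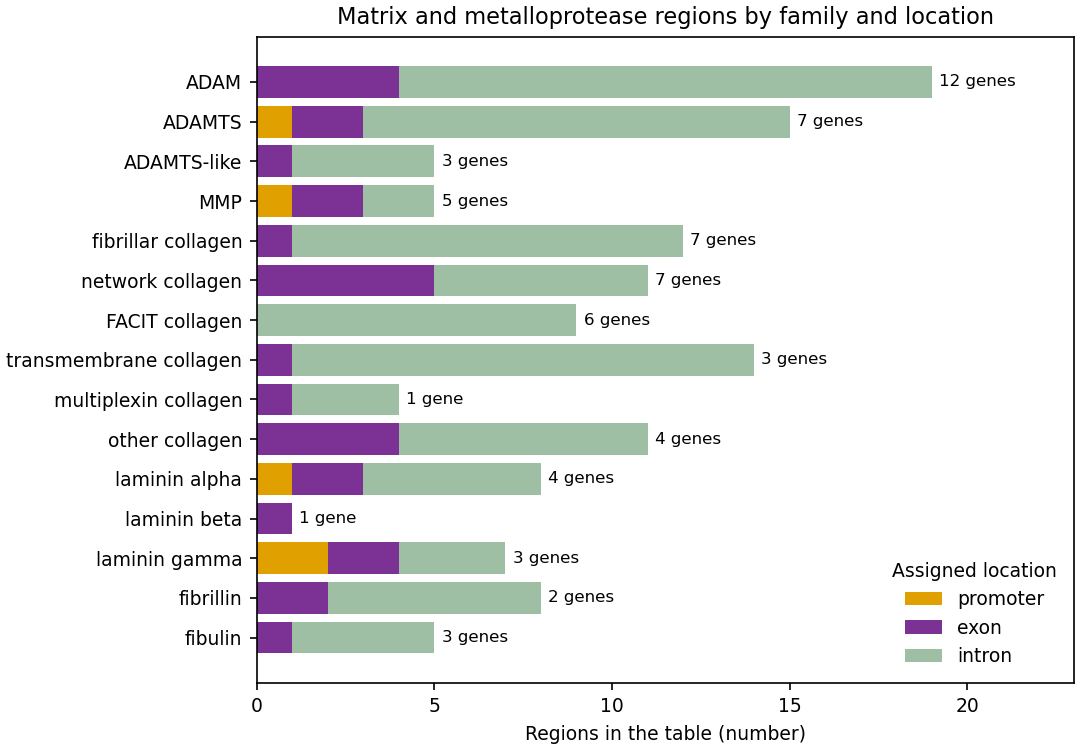
Regions of each family, by the location the authors assigned (horizontal axis, number of regions; number of genes at the end of each bar). ADAM genes hold 19 regions and transmembrane collagens 14 in only 3 genes, introns dominate in most families, and promoter regions appear in ADAMTS, MMP, laminin alpha and laminin gamma alone.

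Of the 143 protein-coding genes of these families in RefSeq, 68, or 47.6%, had a region, against 4838 of 21896, or 22.1%, of all protein-coding genes. Gene length was not taken into account, and many collagen and laminin genes are long. Both fibrillins had a region, as did 7 of 9 network collagens, 4 of 5 laminin alpha chains and 7 of 11 fibrillar collagens. Coverage was lower for ADAM genes, with 12 of 35, ADAMTS genes, with 7 of 19, and MMP genes, with 5 of 23, and also for laminin beta chains, with 1 of 3, and the other collagens, with 4 of 9. The gelatinase genes Mmp2 and Mmp9, the main type I collagen gene Col1a1 and the type III collagen gene Col3a1 had no region.

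A member gene had 1.97 regions on average, against 1.87 per gene in the table. A single region was found in 37 of the 68 genes, or 54.4%, against 63.6% in the table, and 3 or more in 18, or 26.5%, against 17.5%. The most was 6, in Adamts9, against 39 in the table. Some genes had their regions far apart: the 3 regions of Lama2 spanned 565 kb, the 5 of Col25a1 275 kb and the 5 of Col23a1 248 kb. Others were near neighbours, with gaps of 133 bp in Adamts9 and 176 bp in Col6a6.

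**Figure D2:**
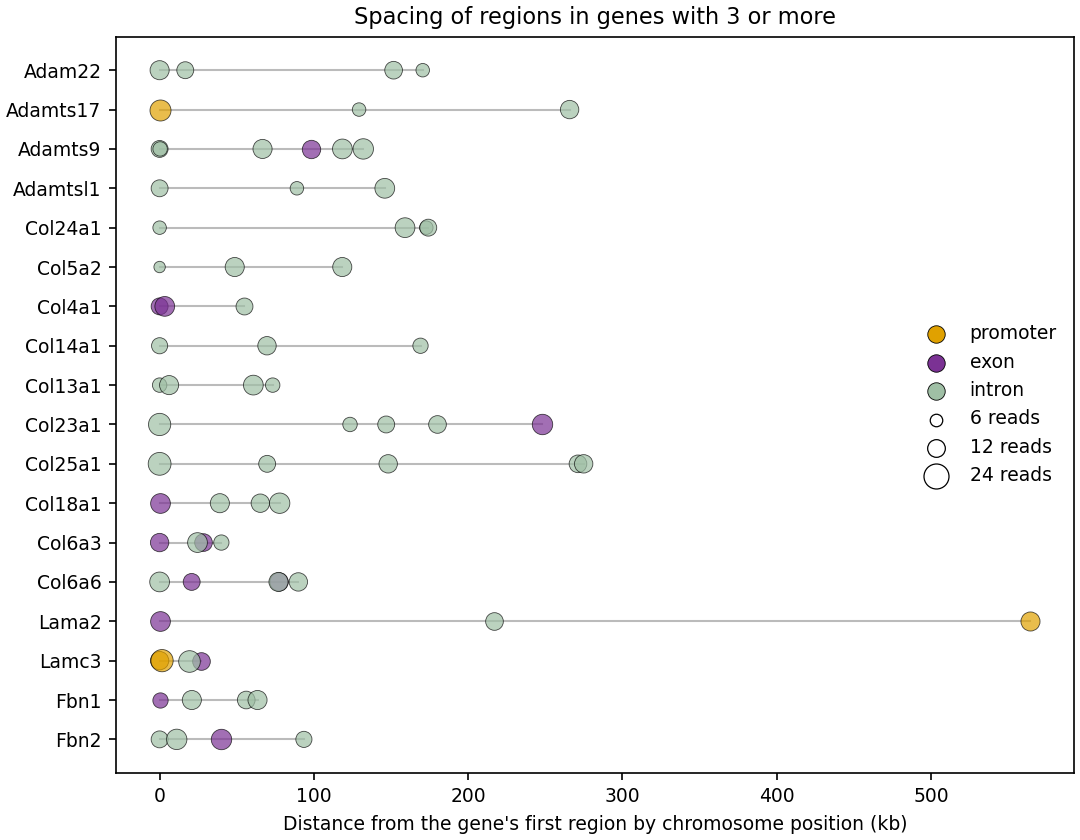
Distance of each region from its gene's first region by chromosome position (kb) for the 18 genes with 3 or more regions; colour gives the assigned location and area the reads summed over Treg, Th1 and naive. The regions of Lama2 spread over 565 kb, and the overlapping circles of Adamts9 and Col6a6 are pairs 133 and 176 bp apart.

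Summed over the 134 regions, there were 991 Treg, 268 Th1 and 469 naive reads. The mean value per region was 2.61 in Treg (exact 95% Poisson interval 2.45 to 2.77), 3.36 in Th1 (2.97 to 3.79) and 3.49 in naive (3.18 to 3.82). The table as a whole averaged 2.63 in Treg, 3.29 in Th1 and 3.41 in naive, all inside the intervals of the matrix and metalloprotease regions. These intervals cover counting error only, and with 1 library per population nothing measures how much animals or captures of 1 population differ. The median region held 7 Treg, 2 Th1 and 3 naive reads, and the most in any region was 17 in Treg, 6 in Th1 and 7 in naive. Reads in all 3 libraries were found for 118 regions, or 88.1%, against 85.9% of the table, and no region lacked reads in more than 1 of the 3. Exonic regions averaged 2.95 in Treg (2.59 to 3.35) and intronic ones 2.47 (2.29 to 2.66), against 2.88 and 2.57 over all exonic and intronic regions. In Th1 the order was the other way, with 2.96 (2.20 to 3.89) in exonic and 3.50 (3.04 to 4.01) in intronic regions. These 2 intervals overlap, and the exonic mean rests on 51 reads. Over the table the Th1 means had the opposite order, 3.43 in exonic and 3.26 in intronic regions. In naive the means were close, at 3.54 and 3.47, against 3.28 and 3.43 over all exonic and intronic regions.

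A library without a read in a region does not show that the region was unmethylated there. A count of 0 allows up to 3 reads, which are worth 1.06 in Treg, 5.04 in Th1 and 2.99 in naive. The Treg library had no read in 1 region, the Th1 library in 13 and the naive library in 2. In only 2 of the 13 regions without a Th1 read was the naive value above the 5.04 that a Th1 count of 0 allows, and in 1 the Treg value. At this depth most of the Th1 zeros are therefore not distinguishable from the level of the other libraries.

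**Figure D3:**
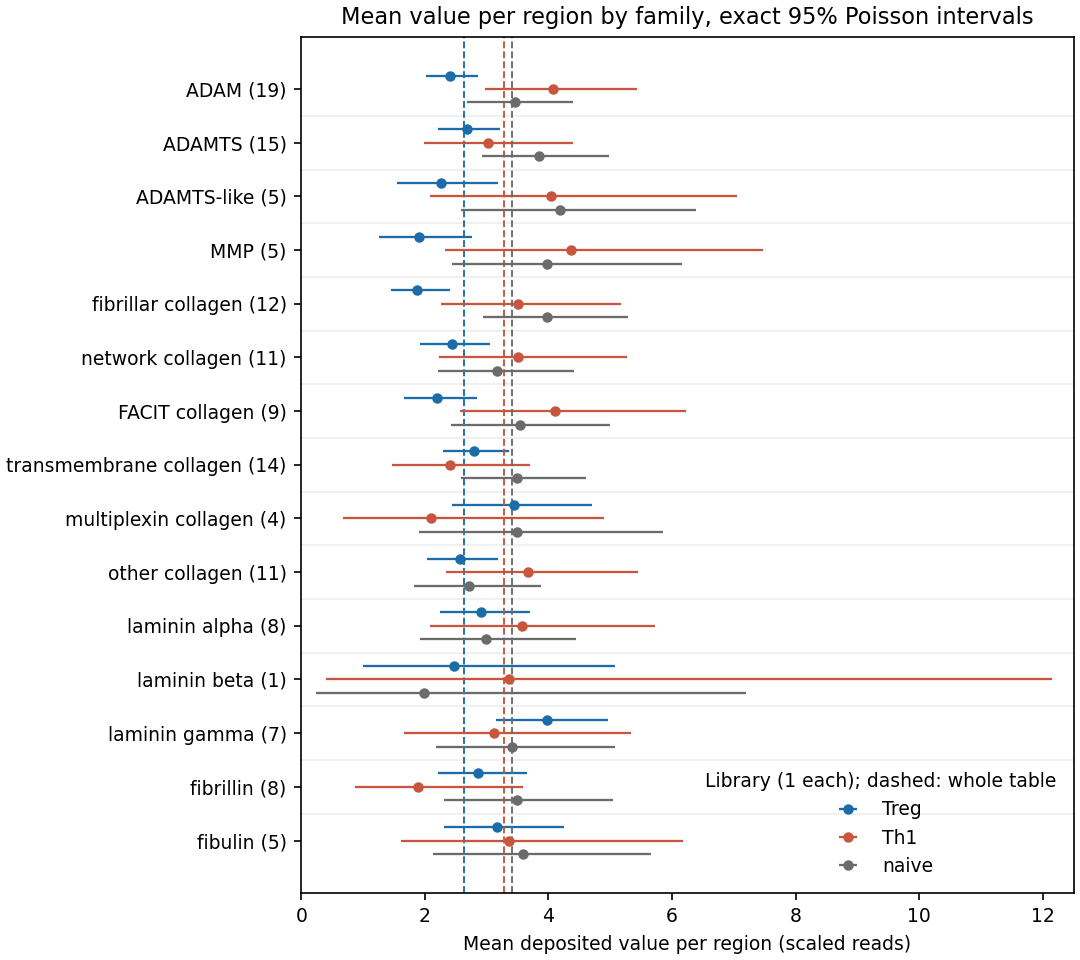
Mean deposited value per region (horizontal axis, scaled reads) in Treg, Th1 and naive for each family, with exact 95% Poisson intervals and the number of regions in brackets; dashed lines give the means of the whole table. The Treg interval of the fibrillar collagens lies below the Treg line at 2.63 and that of the laminin gamma chains above it, and the other 43 intervals hold their line.

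The ADAM family, membrane-anchored proteins with a disintegrin domain and not all active proteases, had 19 regions in 12 genes. They held 130 Treg, 46 Th1 and 66 naive reads. The family's mean value was 2.41 in Treg (2.01 to 2.86), 4.07 in Th1 (2.98 to 5.43) and 3.46 in naive (2.68 to 4.40). Adam22, which lacks protease activity and binds the secreted protein LGI1 at synapses, had the most, with 4 intronic regions spread over 171 kb of chromosome 5. They held 9, 5, 6 and 5 Treg reads, 1, 3, 1 and 2 Th1 reads and 4, 3, 5 and 0 naive reads. The intron without a naive read (8311427 to 8311743) is 1 of the 2 such regions among all 134. Adam10, the sheddase that cuts Notch, had 2 regions, with 7 Treg, 2 Th1 and 2 naive reads in exon 11 and 4 Treg, 4 Th1 and 3 naive reads in an intron. Adam12, Adam19 and Adam23 had 2 regions each, and Adam2, Adam28 and Adam33 had 1 each. The Adam12 intron at chromosome 7, 141241186 to 141241478, held 13 Treg, 3 Th1 and 3 naive reads, and the Adam2 intron at chromosome 14, 66668849 to 66669090, held 10 Treg, 3 Th1 and 5 naive reads. Adam2 encodes a sperm surface protein also called fertilin beta. Both are among the 10 genes with the highest mean over the 3 libraries.

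The other 4 ADAM genes are neighbours on chromosome 8, in the RefSeq order Adam18, Adam3, Adam5, Adam32 and Adam9, where Adam5 has no region. Adam3 is needed for sperm to bind the egg in mice, and Adam9 is a widely expressed membrane protease. Each of the 4 had 1 intronic region, and together they spanned 371 kb. The Adam3 region (25832264 to 25832533) held 0 Treg, 4 Th1 and 5 naive reads, and was the only one of the 134 without a Treg read. Adam32 held 2 Treg, 2 Th1 and 5 naive reads, Adam18 held 4 Treg, 2 Th1 and 4 naive reads, and Adam9 held 9 Treg, 4 Th1 and 2 naive reads. Treg was thus lowest of the 3 values in all but Adam9. Summed over the 4, Treg had 15 reads, Th1 12 and naive 16, and the ratio of the Treg to the naive value was 0.332 (exact binomial 95% interval 0.153 to 0.716). Without Adam3 it was 0.482 (0.207 to 1.16), and without Adam9 0.152 (0.0478 to 0.420). This group was picked after its values were seen, so its ratio is a description.

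ADAMTS enzymes are secreted proteases with thrombospondin repeats that process procollagen and cut proteoglycans. They had 15 regions in 7 genes, with 114 Treg, 27 Th1 and 58 naive reads and mean values of 2.68 in Treg, 3.03 in Th1 and 3.85 in naive. The 6 regions of Adamts9, a proteoglycan-cutting enzyme, lay within 132 kb of chromosome 6, with 3 to 11 Treg, 1 to 3 Th1 and 2 to 4 naive reads each. No region of Adamts9 lacked a read in any of the 3 libraries. Adamts17 had 3 regions. Its promoter region held 12 Treg, 3 Th1 and 2 naive reads, while its introns held 3 Treg, 0 Th1 and 4 naive reads and, at 74249135 to 74249399, 4 Treg, 2 Th1 and 7 naive reads. In that last intron the ratio of the Treg to the naive value was 0.202 (0.0434 to 0.795), among the 5 lowest for the pair. The interval does not allow for that pick. In the promoter region the ratio was 2.12 (0.473 to 19.5) and in the other intron 0.265 (0.0389 to 1.57), and the 3 intervals overlap. Adamts2, which trims the amino end of procollagens, had 2 regions, with 14 Treg, 3 Th1 and 2 naive reads in exon 2 and 5 Treg, 1 Th1 and 6 naive reads in an intron. Adamts12, Adamts14, Adamts16 and Adamts18 had 1 intronic region each. The Adamts12 intron (chromosome 15, 11234973 to 11235375) held 7 Treg, 0 Th1 and 5 naive reads.

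The ADAMTS-like genes encode related matrix proteins without the protease domain and had 5 regions: 3 in Adamtsl1 and 1 each in Adamtsl2 and Adamtsl4. Adamtsl2 encodes a protein that binds fibrillin-1 microfibrils, and its exon 2 (chromosome 2, 26937122 to 26937362) held 13 Treg, 5 Th1 and 4 naive reads and had the highest mean of all 134 regions. The Adamtsl1 introns held 5, 2 and 9 Treg reads, 3, 1 and 1 Th1 reads and 3, 4 and 5 naive reads, and the Adamtsl4 intron held 3 Treg, 2 Th1 and 5 naive reads.

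Matrix metalloproteases had 1 region in each of 5 genes. The membrane-type enzymes gave Mmp14 exon 5, with 6 Treg, 4 Th1 and 3 naive reads, and introns of Mmp15, with 4 Treg, 1 Th1 and 4 naive reads, and Mmp24, with 7 Treg, 3 Th1 and 4 naive reads. Exon 8 of Mmp3, the stromelysin that cuts many matrix proteins, held 5 Treg, 3 Th1 and 5 naive reads. With the Mmp28 region upstream of its start, the family averaged 1.90 in Treg (1.25 to 2.77), 4.37 in Th1 (2.33 to 7.47) and 3.98 in naive (2.43 to 6.15). The ratio of Treg to naive was 0.478 (0.258 to 0.898), an interval that holds the table's 0.770.

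Collagens had 61 regions in 28 genes. The fibrillar collagens, which build the tensile fibres of skin, bone and tendon, had 12 regions in 7 genes. Col24a1, a minor fibrillar collagen, had 4 introns with 3, 4, 2 and 4 Treg reads, 0, 6, 2 and 2 Th1 reads and 4, 5, 3 and 5 naive reads. The 6 Th1 reads in its second intronic region (chromosome 3, 145188306 to 145188669) are the most Th1 reads in any of the 134 regions. The type V collagens, which set the diameter of type I fibres, gave 3 regions in Col5a2 and 1 each in Col5a1 and Col5a3. The Col5a2 intron at chromosome 1, 45553148 to 45553403, held 3 Treg, 4 Th1 and 7 naive reads, a Treg to naive ratio of 0.152 (0.0253 to 0.664). Another Col5a2 intron, at 45483444, held 10 Treg, 1 Th1 and 3 naive reads, a ratio of 1.18 (0.304 to 6.67), and the third, at 45434778, held 2 Treg, 1 Th1 and 2 naive reads. Of the 3 regions, 2 counted as lower in Treg than in naive and 0 as higher, where 22.2% and 8.33% of the table did. The intervals of the first and second overlap. The first was among the 5 lowest for this pair, and its interval does not allow for that pick. Col5a1 (chromosome 2, 27791799 to 27791973) held 6 Treg, 0 Th1 and 6 naive reads, and exon 31 of Col5a3 (chromosome 9, 20597078 to 20597347) held 8 Treg, 0 Th1 and 4 naive reads. Col1a2, a chain of type I collagen, had an intron at chromosome 6, 4482009 to 4482253, with 8 Treg, 4 Th1 and 5 naive reads. Col11a1, of cartilage collagen, held 3 Treg, 2 Th1 and 2 naive reads, and Col27a1 held 11 Treg, 3 Th1 and 2 naive reads.

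Summed over the 12 fibrillar regions, there were 64 Treg, 25 Th1 and 48 naive reads. The mean value was 1.88 in Treg (1.45 to 2.40), 3.50 in Th1 (2.27 to 5.17) and 3.98 in naive (2.94 to 5.28). The ratio of Treg to naive was 0.472 (0.319 to 0.701). Of the 15 families, this was the only one whose interval did not hold the table's ratio of 0.770. Without Col24a1 the ratio was 0.582 (0.365 to 0.941), which holds it. The subset without Col24a1 was chosen after the values were seen, and no family was shown to differ from the rest.

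The network-forming collagens had 11 regions in 7 genes, 10 of them in type IV collagen, the sheet of every basement membrane, and 1 in Col8a1. The 6 type IV genes lie in 3 head-to-head pairs, and all 6 had a region. Col4a1 had 3 regions, in exons 19 and 15 and an intron, and Col4a2 had 2 introns, within 194 kb of chromosome 8, with 38 Treg, 10 Th1 and 18 naive reads together. Col4a3 and Col4a4 had 1 region each on chromosome 1, with 12 Treg, 3 Th1 and 8 naive reads together. Col4a5 had 1 and Col4a6 had 2 on the X chromosome, with 17 Treg, 7 Th1 and 7 naive reads together. The 3 pairs thus had Treg means of 2.68, 2.11 and 2.00 in that order, and naive means of 3.59, 3.98 and 2.32. Single introns differed more: the Col4a1 intron at 11290843 to 11291188 held 6 Treg, 4 Th1 and 1 naive reads, and the Col4a6 intron at 137881983 to 137882244 held 8 Treg, 3 Th1 and 1 naive reads. The Col8a1 intron held 9 Treg, 3 Th1 and 2 naive reads.

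The FACIT collagens had 9 intronic regions in 6 genes. Col14a1, which binds the surface of type I fibres, had 3, with 6, 5 and 5 Treg reads, 1, 5 and 1 Th1 reads and 3 naive reads in each. The middle one (chromosome 15, 55215607 to 55215969) and the intron of Col12a1 (chromosome 9, 79454395 to 79454820), with 9 Treg, 5 Th1 and 3 naive reads, are among the 10 genes with the highest mean. Col22a1 had 2 regions, and Col16a1, Col19a1 and Col9a1 had 1 each. The Col9a1 intron (chromosome 1, 24256656 to 24256879) held 2 Treg, 4 Th1 and 3 naive reads, and its Treg value stood to its Th1 value at 0.105 (0.00948 to 0.732). It is named as 1 of the 5 lowest for that pair, a pick the interval does not allow for.

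The transmembrane collagens, anchored in the cell membrane with a collagen domain outside, had 14 regions in 3 genes, the most per gene of the 15 families. Col25a1, a neuronal collagen found in amyloid plaques, had 5 introns with 44 Treg, 10 Th1 and 15 naive reads in all. Col23a1 had 5 regions with 41 Treg, 5 Th1 and 20 naive reads, of which exon 23 held 8 Treg, 1 Th1 and 7 naive. Col13a1 had 4 introns whose Treg reads were 5, 9, 10 and 2, beside 0, 3, 1 and 1 Th1 reads and 3, 2, 4 and 5 naive reads. Its last intron (chromosome 10, 61416728 to 61416948) had a Treg to naive ratio of 0.142 (0.0135 to 0.865). That intron was among the 5 lowest for the pair, a pick the interval does not allow for. The family mean was 2.79 in Treg, 2.40 in Th1 and 3.49 in naive, each interval holding the table mean.

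Col18a1, the multiplexin collagen whose end fragment is endostatin, had 4 regions with 39 Treg, 5 Th1 and 14 naive reads. Its Treg reads were 12, 9, 8 and 10, its Th1 reads 1, 1, 0 and 3 and its naive reads 2, 4, 5 and 3. Type VI collagen, a beaded filament around cells, supplied the remaining 11 regions: 5 in Col6a6, 4 in Col6a3, and 1 each in Col6a2 and Col6a4. Col6a6 and Col6a4 flank Col6a5 on chromosome 9 and together held 47 Treg, 10 Th1 and 17 naive reads. The Col6a6 regions held 9, 7, 9, 8 and 10 Treg reads, 3, 0, 2, 1 and 3 Th1 reads and 3, 4, 3, 4 and 0 naive reads. The last, an intron at 105703599 to 105703790, was thus the only one of the gene without a naive read. In Col6a3 the intron at 92721013 to 92721292 held 11 Treg, 3 Th1 and 1 naive reads, while the intron at 92736449 to 92736783 held 3 Treg, 4 Th1 and 2 naive reads. Of these introns of 1 gene, the first counted as higher in Treg than in naive and the second as lower in Treg than in Th1.

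Laminins are trimers of an alpha, a beta and a gamma chain. They had 16 regions in 8 genes, and the sum of their values gave a Treg to naive ratio of 1.08 (0.777 to 1.51), beside 0.725 (0.613 to 0.860) for the collagens and 0.666 (0.542 to 0.821) for the 39 regions of ADAM, ADAMTS and MMP genes. The collagen interval and that of the ADAM, ADAMTS and MMP genes hold the table's 0.770. The laminin interval starts just above it, and the differences between the groups were not tested. Among alpha chains, Lama2 had 3 regions, Lama1 and Lama3 had 2 each and Lama4 had 1. The Lama2 intron at 26990805 to 26991055 held 6 Treg, 5 Th1 and 1 naive reads, a Th1 to naive ratio of 8.44 (0.944 to 399). Its exon 43 held 9 Treg, 2 Th1 and 4 naive reads. Exon 56 of Lama1 held 11 Treg, 1 Th1 and 3 naive reads, and the Lama4 intron at chromosome 10, 38774802 to 38775022, held 13 Treg, 4 Th1 and 2 naive reads.

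The Lama3 introns held 7 and 10 Treg, 2 and 1 Th1 and 2 and 2 naive reads. Lamb3, a beta chain, had 1 region, in exon 20, with 7 Treg, 2 Th1 and 2 naive reads. Lamc1, the gamma chain of most laminins, had exon 28 (chromosome 1, 155067973 to 155068239) with 10 Treg, 0 Th1 and 3 naive reads. The Th1 count of 0 in Lamc1 allows a value above those of the other libraries there.

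Lamc3 had 4 regions with 42 Treg, 8 Th1 and 12 naive reads, of which 2 were promoter regions. Its intron held 13 Treg, 2 Th1 and 3 naive reads and its exon 9 held 6 Treg, 3 Th1 and 3 naive reads. The naive reads were 3 in each of the 4, whereas the Treg reads ran between 6 and 14. The 7 gamma-chain regions averaged 3.98 in Treg (3.15 to 4.96), 3.12 in Th1 (1.66 to 5.34) and 3.42 in naive (2.19 to 5.08). Their Treg interval lies above the table's 2.63. Of 45 such intervals over families and libraries, 2 missed the table mean. The gamma-chain regions had a median length of 299 bp, against 249 bp in the table. Values are not scaled to length, and the part of length or location was not tested. The gamma-chain ratio of Treg to naive was 1.16 (0.730 to 1.92), an interval that holds the table's 0.770.

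Fibrillins form the microfibrils on which elastin is laid down, and mutations in fibrillin-1 cause Marfan syndrome. Fbn1 and Fbn2 had 4 regions each. Fbn1 held 5, 9, 7 and 8 Treg reads, 0, 2, 2 and 1 Th1 reads and 4, 3, 3 and 5 naive reads, and its exonic region is exon 26. Fbn2 held 7, 14, 9 and 6 Treg reads, 2, 0, 1 and 1 Th1 reads and 2, 2, 6 and 3 naive reads. The intron with 14 Treg reads (chromosome 18, 58235083 to 58235333) was among the 5 genes with the highest Treg over Th1 ratio. Over the 8 regions the mean was 2.86 in Treg (2.21 to 3.65), 1.89 in Th1 (0.865 to 3.59) and 3.49 in naive (2.32 to 5.04). The Th1 mean, the lowest of the 15 families, rests on 9 reads.

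Fibulins, which link elastin to other matrix proteins, had 5 regions: 2 in Fbln1, 2 in Fbln2 and 1 in Fbln5. Exon 11 of Fbln2 (chromosome 6, 91214551 to 91214842) held 16 Treg, 3 Th1 and 1 naive reads, a Treg to naive ratio of 5.66 (0.880 to 237). The Fbln2 intron held 6 Treg, 2 Th1 and 5 naive reads. The Fbln1 introns held 7 and 10 Treg, 2 and 2 Th1 and 4 and 4 naive reads, and the Fbln5 intron held 6 Treg, 1 Th1 and 4 naive reads.

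The populations were then set against each other. A pseudocount of 0.5 was added to each deposited value, and a region counted as higher or lower when its log2 ratio reached 1 or -1. Between Treg and naive, 8 of the 134 regions were higher in Treg, or 5.97%, against 8.33% of the table, and 33 were lower, or 24.6%, against 22.2%. The median log2 ratio was -0.43, against -0.29 over the table. The ratio of the summed values was -0.42 on the log2 scale (-0.58 to -0.26), against -0.38 over the table. With median-of-ratios scaling of the reads in place of the deposited one, 17 regions were higher and 18 lower in Treg, and the ratio of sums was -0.061, so the surplus of lower regions depends on the scaling. The log2 ratio of sums over the whole table also moved, by 0.36, and counts over the table under that scaling are not given here. By the log2 ratio with 0.5 added, the highest regions with reads on both sides were in Fbln2 exon 11, Col6a3 and Col4a6. The lowest, 1 per gene, were in Col5a2, Adam32, Col13a1 and Adamts17. Without the added 0.5, Adam32 had the same ratio as Col13a1, 0.142 (0.0135 to 0.865). On that measure introns of Adam23 and Adamtsl1, at 0.177, also lay below that of Adamts17. The intervals do not allow for regions being picked as extremes.

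Between Th1 and naive, 28 regions were higher in Th1, or 20.9%, against 19.4% of the table, and 43 were lower, or 32.1%, against 29.0%. The 13 regions without a Th1 read are all among the 43. The median log2 ratio was -0.20, against -0.19, and the ratio of sums -0.05 (-0.27 to 0.17), against -0.06. The Lama2 intron and the Col4a1 intron led the higher regions with reads on both sides, and Col5a1, Col18a1, Adamts12 and Col5a3, all with no Th1 read, were among the lowest. The Col18a1 region (chromosome 10, 76586630 to 76586909) held 8 Treg, 0 Th1 and 5 naive reads.

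Between Treg and Th1, 16 regions were higher in Treg, or 11.9%, against 17.0% of the table, and 30 were lower, or 22.4%, against 21.0%. Of the 16, 13 had no Th1 read, so most of this count rests on libraries with 0 reads. The median log2 ratio was -0.22 in both the members and the table, and the ratio of sums was -0.37 (-0.56 to -0.17), against -0.32. With median-of-ratios scaling the direction reversed: 28 regions were higher and 18 lower in Treg, and the ratio of sums was 0.024. The log2 ratio of sums over the whole table moved by 0.39 under that scaling. By the log2 ratio with 0.5 added, the lowest regions with reads on both sides were in Col9a1, Col24a1, Col5a2 and, at 92736449, Col6a3. Without the added 0.5, Col24a1 stood at 0.140 (0.0290 to 0.590) and the Col6a3 intron at 0.157. An Adam23 intron also stood at 0.140. The 3 comparisons share libraries, so they are not independent of each other, and in each the shares of the matrix and metalloprotease regions lie near those of the table.

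**Figure D4:**
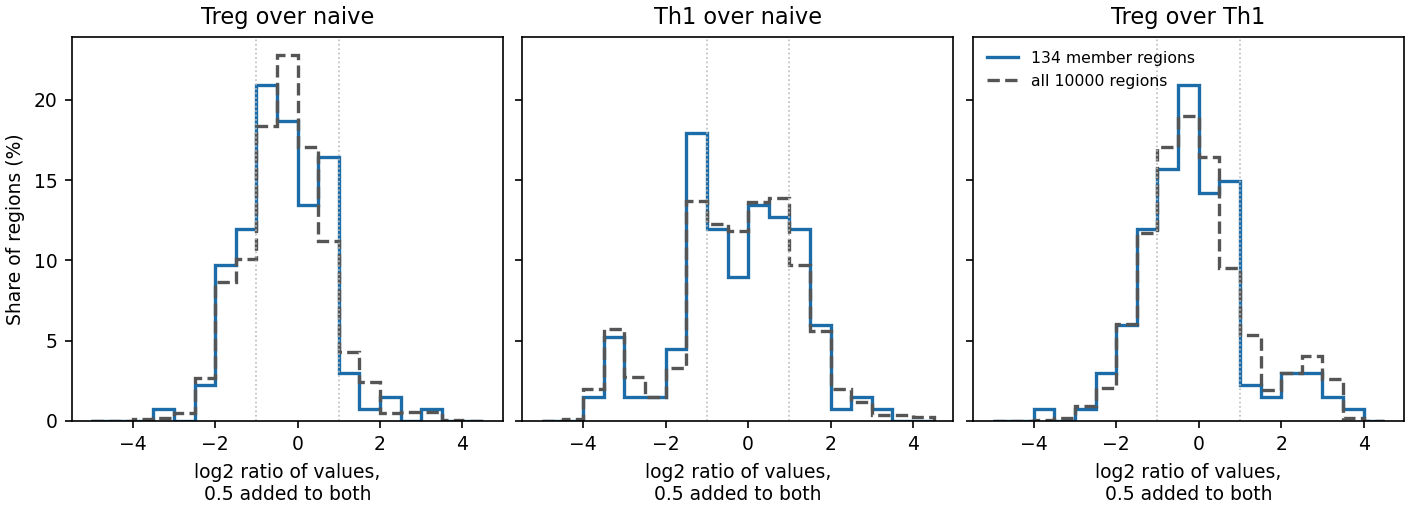
Share of regions (vertical axis, %) by log2 ratio of deposited values with 0.5 added to both (horizontal axis) for Treg over naive, Th1 over naive and Treg over Th1; solid lines are the 134 matrix and metalloprotease regions, dashed lines all 10000, dotted lines the size rule at -1 and 1. The solid and dashed lines cover the same range, with medians of -0.43 and -0.29, -0.20 and -0.19, and -0.22 and -0.22 in the 3 panels, and the separate groups near -3 in the Th1 over naive panel and near 3 in the Treg over Th1 panel are mostly regions without a Th1 read.

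An exact binomial test of the reads of a pair of libraries, with Benjamini-Hochberg adjustment over all 10000 regions, compares those libraries and not the cell types. It called 0 of the 134 regions in each pair, where it called 0.0100% of the table for Treg and naive, 0.00% for Th1 and naive and 0.00% for Treg and Th1. How often the test calls a real difference at these read numbers is not given, so its 0 calls do not show equal values. The smallest adjusted p of that exact test was 0.275, for Adam3 between Treg and naive. At an unadjusted p under 0.05, 9 regions were lower in Treg than in naive and 0 higher, against 8.08% and 0.32% of the table. Between Th1 and naive, 1 region was higher and 0 lower, against 1.37% and 0.16%: the Lama2 intron, with an exact p of 0.0295. Between Treg and Th1, 9 were lower and 0 higher, against 5.01% and 0.00%.

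The other genes of the matrix came from a list of 132 in 8 roles, of which 54 had a region, 120 regions in all. Basement membrane proteins gave 9 of 13 genes, led by Fras1 with 6 regions, and fibronectin, tenascin and related glycoproteins 12 of 24, led by Reln with 9. Elastic fibre proteins gave 6 of 14, led by the TGF-beta binding proteins Ltbp1 and Ltbp2 with 3 each. Matrix receptors gave 9 of 19, led by the integrin gene Itga11 with 4. Collagen-processing enzymes gave 6 of 17, led by the prolyl hydroxylase gene P4ha3 with 2, and proteoglycans 4 of 22, led by Spock1 with 8. Other proteases gave 5 of 15, led by Tll2 with 4, and inhibitors 3 of 8, led by the membrane-anchored MMP inhibitor Reck with 2. The region with the highest mean was a Spock1 intron (chromosome 13, 57985190 to 57985554), with 10 Treg, 4 Th1 and 9 naive reads. An intron of Nid2, which links laminin to type IV collagen, followed (chromosome 14, 20582072 to 20582556) with 12 Treg, 6 Th1 and 3 naive reads. Exon 8 of Mep1a, a meprin protease (chromosome 17, 43624038 to 43624294), held 7 Treg, 4 Th1 and 7 naive reads. Of the 120 regions, 5 were higher and 25 lower in Treg than in naive, beside 8.33% and 22.2% of the table. In Th1 against naive 28 were higher and 34 lower, beside 19.4% and 29.0% of the table, and in Treg against Th1 19 were higher and 27 lower, beside 17.0% and 21.0%.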

How the data were processed

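Methylated-DNA capture was sequenced from 4 sorted mouse CD4+ T cell populations, 1 library each. Each library took 250 ng of capture product and a 250 to 350 bp size selection, per the labels' protocols. Bowtie 0.12.7, FastQC and the mm9 build are named per the submitters' processing notes; the role of each, region calling and the treatment of multiply matching reads are not stated in the sources used here, and mappability was not examined. The authors deposited 1 table with a signal per region and library, a scaled read number, and a distance to the gene start for promoter regions. Every Treg, Th1 and naive signal was a whole multiple of 1 constant (100% of values, relative tolerance 1e-06), which gave the reads. With Th1 set to 1, the inverse of the library's constant was 4.77 in Treg and 1.69 in naive. How each library was scaled is not stated, so these numbers are not a measured sequencing depth. Columns were matched to samples by name. Gene labels, locations and exon numbers are the authors'.

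Families and the list of other matrix genes were set by gene symbol. The members and lists were chosen with earlier results of these data known. Named regions followed a rule: all promoter regions, the gene with most regions per family, the 10 highest means, the 5 highest and 5 lowest ratios per pair (1 per gene) and regions unread in more than 1 library; others are named with their gene, and some genes that the rule would name are not reported here. Intervals are exact Poisson (means) or Clopper-Pearson binomial (ratios) at 95%, and do not allow for regions being picked as the highest or lowest. The exact binomial test was checked on simulated reads for false calls. How often it calls a real difference at this depth is not given here. Alternatives were a pseudocount of 5, a 1.5-fold rule, median-of-ratios scaling, a minimum of 10 reads, that test, and merging within 100 bp. Python 3.11.15, pandas 2.3.3, numpy 2.4.6, scipy 1.17.1 and matplotlib 3.10.9 were used.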

Additional observations from a re-analysis of the deposited data

How the results depend on the processing

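With 1 library per population and a median of 7 Treg, 2 Th1 and 3 naive reads per region, counts by the size rule depend on its settings. The same counts over all 10000 regions are not given for the alternative settings. The counts below therefore describe the settings and not a trait of the 134 regions. With a pseudocount of 5, higher and lower regions numbered 0 and 0 for Treg against naive (8 and 33 as reported), 2 and 2 for Th1 against naive (28 and 43) and 1 and 3 for Treg against Th1 (16 and 30). With a 1.5-fold rule they numbered 22 and 59 for Treg against naive, 45 and 54 for Th1 against naive and 35 and 47 for Treg against Th1. With median-of-ratios scaling they numbered 17 and 18 for Treg against naive and 28 and 18 for Treg against Th1. That scaling moved the log2 ratio of sums over the whole table by 0.36 for Treg against naive and 0.39 for Treg against Th1; the ratio over the 134 regions became -0.061 instead of -0.42, and 0.024 instead of -0.37, which reversed the direction between Treg and Th1. The exact binomial test, adjusted over the table, gave 0 in each direction in all 3 pairs. With at least 10 reads, which kept 111 of the 134 regions, 20 were lower in Treg than in naive. Counting each gene once per location class put 65.9% instead of 74.6% in introns. Of 55 alternative values, 30 kept their direction and moved less than the limits set for a change, which for counts was 1.5 times the reported one. Merging within 100 bp joined none of the 134 regions, so the values under it could not move. They are among the 30, which therefore overstates how far the results held. Alternatives chosen after seeing the data gave a fibrillar collagen log2 ratio of Treg to naive of -0.78 without Col24a1 and -0.73 with the other scaling, against -1.08, and -1.05 instead of -1.59 for the ADAM genes of chromosome 8 without Adam3. Beyond scaling, filter and rule, the cause of these shifts was not tested. No paired analysis was possible because each population has 1 library.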
